A study of Mus musculus with 8 samples.

Results

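Endothelial identity markers are genes whose transcripts mark the cells that line blood vessels, and 9 of them were followed here in mouse ventricles: Pecam1, Cdh5, Erg, Emcn, Vwf, Egfl7, Robo4, Esam and Cldn5. They were chosen by name, with earlier results of these data known. All 9 were among the 13677 genes of the deposited table, and all 9 passed the filter on low values. Poly(A) RNA of ventricular tissue was sequenced in 8 libraries, labelled KO (n = 2), DKO (n = 3) and C (n = 3). The series sets ventricles deficient in Vhl against wild-type ventricles in a mouse model with Cre recombinase under Wt1. Vhl encodes the von Hippel-Lindau protein, which marks hypoxia-inducible factors for degradation. The labels do not spell out KO, DKO and C, and give neither the second change of DKO nor the age, sex or strain of the mice, so each direction below is one between libraries with those labels. Wt1 is a gene of the epicardium that has also been found in coronary endothelium, and the share of cells in which Cre acted was not given in the sources used here. All tissue was left without treatment, per the labels.

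Endothelial cells of the heart form the capillaries that run along each muscle fibre, the larger coronary vessels and the endocardium. Their identity rests on ETS-family transcription factors, among them ERG, which in human endothelial cells maintains the genes of the VE-cadherin junction and of claudin-5. The junction is held by adhesion proteins (VE-cadherin, PECAM-1, ESAM) and sealed by claudin-5, while other markers are secreted or sit on the luminal surface.

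The 9 markers were well covered, with 398 to 5844 reads per gene and library out of 15028176 to 21202385 reads per library. By mean level over the 8 libraries they ranked from the 73.7th percentile of tested genes (Erg) to the 97.1st (Egfl7). Levels are given as the deposited signal, reads plus 0.5 divided by a scaled library size, on which 3 reads correspond to 0.104 to 0.283 depending on the library. In these bulk libraries fewer endothelial cells and less RNA per endothelial cell cannot be told apart. The level of Vhl itself was 8.64 ± 0.450 in KO, 10.3 ± 1.43 in DKO and 7.91 ± 0.925 in C (SD). It did not pass in KO or DKO against C (limma, adjusted p = 0.708 and 0.589) and was not lower in either, and the deposited gene level does not show which exons the reads came from. The scaling factors of the deposited table were 1.36 and 1.37 in KO, 0.705 to 1.06 in DKO and 0.925 to 0.964 in C. The library DKO 2 stood apart, with 41.6% of its reads from the mitochondrial genome against 16.2% to 29.9% in the other 7.

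In KO ventricles, set against C, Cldn5 was lower by about 2-fold while the other 8 markers did not pass the test. In DKO ventricles no marker passed against C, and the DKO libraries spread widely. Cldn5 was higher in DKO than in KO. Of the 9 markers 1 was called lower in KO than in C and 0 were called higher (limma, adjusted p under 0.05), where 7.01% of all 13544 tested genes were called lower and 6.9% higher, 13.9% in all. The median log2 fold change of the 9 was -0.02, and that of all tested genes was 0.01. The 8 markers that did not pass lay between -0.46 and 0.46 (limma, adjusted p from 0.146 to 0.971). At 1 of 9 the count is near the share of all genes called, and nothing particular to the markers as a group is read from it.

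**Figure D1:**
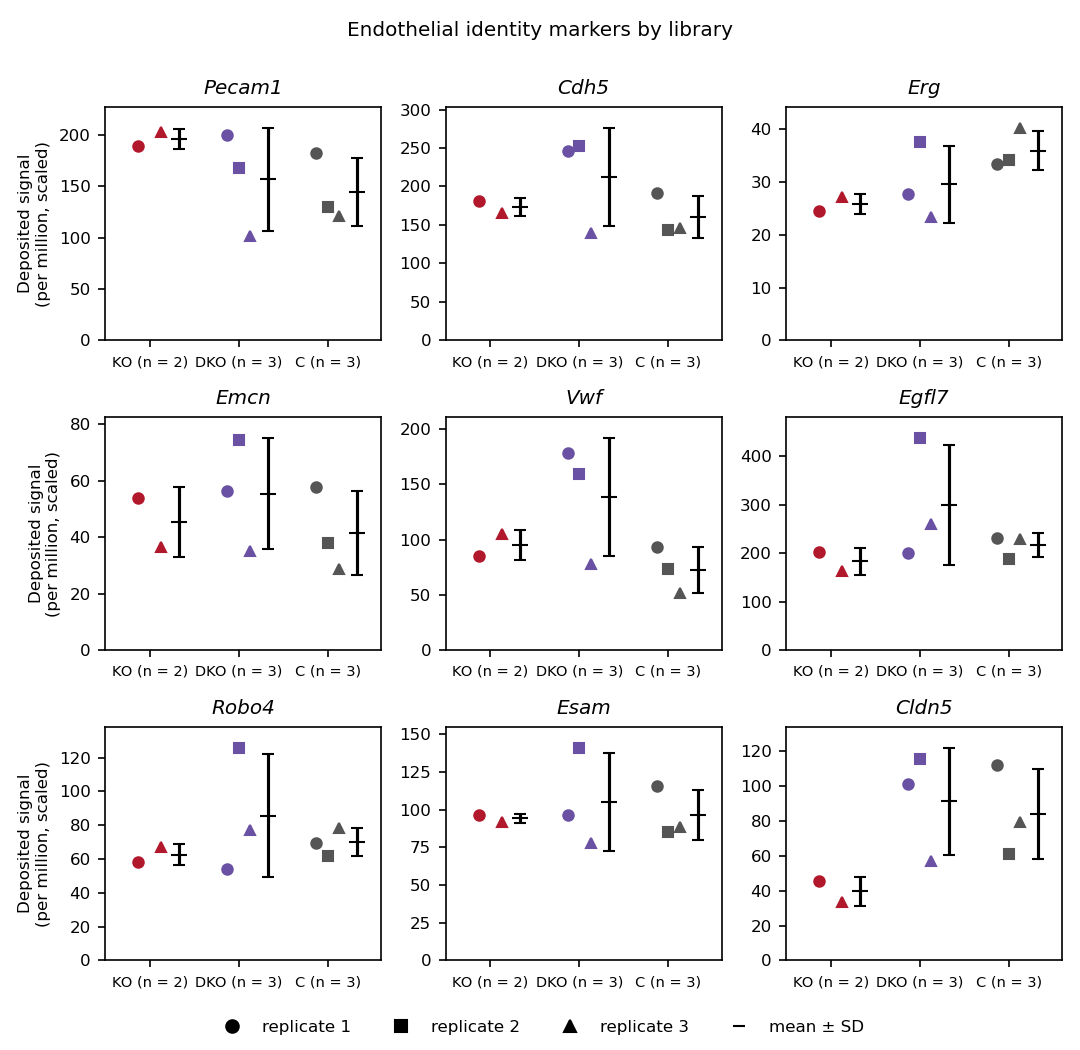
Deposited signal (y axis, reads per scaled library size) of each marker in KO, DKO and C libraries (x axis), with the mark's shape giving the replicate number and the bar the mean ± SD. The 2 KO libraries lie below all 3 C libraries for Cldn5 and Erg, and the SD is largest in DKO for all 9 markers.

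Cldn5 encodes claudin-5, the main sealing protein of endothelial tight junctions, which has also been described at the lateral membrane of heart muscle cells. The gene (ENSMUSG00000041378) lies on chromosome 16 from 18776847 to 18778262 on the plus strand (GRCm38). Its signal was 45.5 and 33.5 in the KO libraries, 101, 116 and 57.0 in the DKO libraries, and 112, 60.7 and 79.1 in the C libraries. Both KO values lay below every DKO and every C value, while DKO and C overlapped. In KO against C it fell by 1.04 ± 0.30 (SE) on the log2 scale, a level 0.487 times that of C (limma, adjusted p = 0.0407; 95% interval -1.70 to -0.38). In DKO against KO it was 1.14 ± 0.30 (SE) higher on the log2 scale (limma, adjusted p = 0.0317), where 6.08% of tested genes were called higher and 5.73% lower, 11.8% in all. Its difference of DKO from C was 0.10 ± 0.27 (SE) (limma, adjusted p = 0.93), with an interval of -0.49 to 0.69. The comparisons of KO with C and of DKO with KO share the KO libraries and are not independent. Groups this small often do not overlap. Both KO libraries lay below all 3 C libraries for 26.7% of tested genes and above them for 27.5%, 54.3% in all, and 3 of the 9 markers were among these (Cldn5 and Erg lower, Pecam1 higher). All 3 DKO libraries lay above both KO libraries for 20.5% of tested genes and below them for 21.1%, 41.5% in all, and Cldn5 was the 1 marker among these.

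The Cldn5 calls rested on few libraries. Leaving out any of 4 libraries ended the call of KO against C in limma. The log2 fold change and adjusted p were then -0.81 and 0.140 (C replicate 1 left out), -1.06 and 0.0973 (C replicate 3 left out), -1.25 and 0.0901 (KO replicate 1 left out) or -0.82 and 0.289 (KO replicate 3 left out). In DKO against KO any of 5 libraries did so. Its log2 fold change and adjusted p in limma were 1.14 and 0.0518 with C replicate 3 left out, 1.04 and 0.0601 with DKO replicate 1 left out, 0.94 and 0.0663 with DKO replicate 2 left out, 1.35 and 0.0820 with KO replicate 1 left out, and 0.92 and 0.256 with KO replicate 3 left out. The log2 fold change in KO against C stayed negative in all 24 alternative settings, from -1.25 to -0.51, and passed in 14 of them (adjusted p from 0.00377 to 0.289). For DKO against KO it stayed positive in all 24, from 0.49 to 1.44, and passed in 15 (adjusted p from 0.00165 to 0.256). With each library scaled to its total count, the median of all genes moved to 0.49, and Cldn5, at -0.51, lay 0.99 below that median (limma, adjusted p = 0.209). The same scaling put Cldn5 in DKO against KO at 0.49 (limma, adjusted p = 0.206), where the median of all genes was -0.58. Cldn5 is the shortest of the 9 transcripts at 1416 bases, and over all genes the change in KO rose with transcript length (rank correlation 0.255 across 13533 genes, which are not independent). After removal of the trends with transcript length and GC, an alternative chosen after seeing the data, the Cldn5 difference was -0.81 (limma, adjusted p = 0.103). The mitochondrial share of reads was 16.2% and 17.4% in KO, 22.9% to 41.6% in DKO and 23.1% to 29.0% in C, and its part in the Cldn5 difference was not tested.

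Within each library Cldn5 can be set against the other markers, which removes the scaling between libraries. On the log2 scale Cldn5 lay 0.98 and 1.37 below the mean of the other 8 markers in the KO libraries. The distance below that mean was 0.06, 0.27 and 0.46 in the DKO libraries. In the C libraries Cldn5 lay 0.13 above the mean in C 1, and 0.40 and 0.02 below it in C 2 and C 3. The KO libraries did not overlap with the other groups, and the mean difference between KO and C was -1.07 (exact permutation test, two-sided p = 0.2, the smallest p that 10 splits allow). That test could not fall under 0.05. Cldn5 was singled out because of its call in these same libraries, so the ratio is not separate support. The signal of Cldn5 over that of Cdh5 was 0.251 and 0.203 in KO, 0.410, 0.459 and 0.409 in DKO, and 0.583, 0.423 and 0.539 in C.

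**Figure D2:**
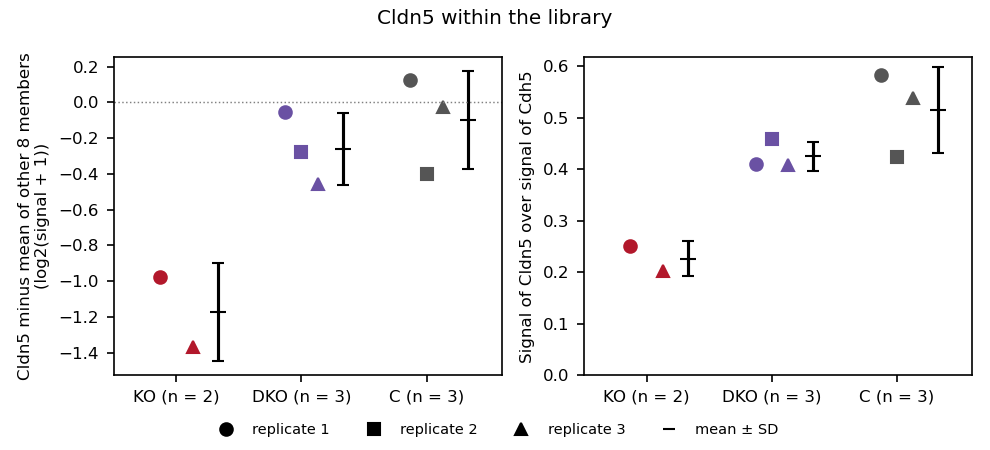
Cldn5 within each library, by group (x axis): on the left its log2(signal + 1) minus the mean of the other 8 markers, on the right the ratio of its signal to that of Cdh5; marks are libraries and bars the mean ± SD. The KO libraries, at -0.98 and -1.37 on the left, are below all DKO and C libraries in both panels.

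Promoter windows are shown for Cldn5, the called marker, and for Robo4 and Emcn, which were not called, so that the letters near their start sites can be compared. Of the 9 markers, Cldn5, Egfl7, Emcn, Erg and Robo4 had windows in the RefSeq table (GRCm38.p6), 9 windows in all. Each window holds 250 bases before and 50 after the start site, 5′ to 3′. Capitals mark matches, on either strand, to 6 of the 7 motifs searched: the ETS motifs CAGGAAG and CCGGAAG, the FOXO motif GTAAACA, the SOX motif AACAAT and the HIF core motifs ACGTG and GCGTG. The seventh, the ETS core GGAA, is contained in the longer ETS motifs and is not marked. The windows lie at chr16:18776597-18776896 (plus strand) for Cldn5, chr9:37401722-37402021 (plus strand) for Robo4 and chr3:137340828-137341127 (plus strand) for Emcn.
Cldn5: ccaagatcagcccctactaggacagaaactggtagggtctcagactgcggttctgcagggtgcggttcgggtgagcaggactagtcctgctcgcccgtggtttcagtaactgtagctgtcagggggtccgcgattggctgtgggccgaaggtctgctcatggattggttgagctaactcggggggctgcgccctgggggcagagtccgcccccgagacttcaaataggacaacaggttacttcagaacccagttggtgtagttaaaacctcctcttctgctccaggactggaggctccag
Robo4: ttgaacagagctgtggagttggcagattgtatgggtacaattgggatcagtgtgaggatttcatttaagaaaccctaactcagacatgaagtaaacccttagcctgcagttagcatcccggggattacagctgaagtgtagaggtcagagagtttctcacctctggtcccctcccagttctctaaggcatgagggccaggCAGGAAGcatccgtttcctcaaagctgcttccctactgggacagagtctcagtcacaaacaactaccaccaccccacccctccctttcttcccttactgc
Emcn: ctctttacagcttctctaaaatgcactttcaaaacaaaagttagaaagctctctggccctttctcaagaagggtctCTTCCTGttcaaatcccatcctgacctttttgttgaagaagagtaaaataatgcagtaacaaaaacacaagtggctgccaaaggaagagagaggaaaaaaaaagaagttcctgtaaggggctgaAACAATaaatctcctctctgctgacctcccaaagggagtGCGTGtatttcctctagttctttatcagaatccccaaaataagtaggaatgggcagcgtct
The Cldn5 window matched none of the 7 motifs, including GGAA, which 96.0% of 32851 promoter windows hold. The Robo4 window matched CAGGAAG at base -50 from the start site, and the Emcn window matched it on the opposite strand at base -174. That motif was in 5 of the 9 windows and in 13.3% of all windows. The 5 windows belong to 4 genes (Egfl7, Emcn, Erg and Robo4), of which Egfl7 and Erg had several windows each. The Emcn window also held GCGTG at base -11 and AACAAT at base -50. GCGTG was in 3 of the 9 windows (of Egfl7, Emcn and Erg) and in 32.4% of all windows. AACAAT was in 2 of the 9 (of Emcn and Erg) and in 10.7% of all windows. ACGTG (19.6% of all windows), CCGGAAG (8.86%) and GTAAACA (3.65%) were in none of the 9 windows. A match is a description of letters in these windows only.

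Erg encodes the ETS factor named above and was the marker with the lowest read counts. Its signal was 24.4 and 27.2 in KO, 27.6, 37.6 and 23.2 in DKO, and 33.4, 34.1 and 40.1 in C. Both KO values lay below all C values, as Cldn5's did, and the DKO values spanned both groups. The difference of KO from C was -0.46 ± 0.20 (SE) on the log2 scale and did not pass (limma, adjusted p = 0.146), with an unadjusted 95% interval of -0.89 to -0.03. It passed at the same log2 value without DKO replicate 2 (limma, adjusted p = 0.0415) and with only the KO and C libraries in the fit (limma, adjusted p = 0.0278). Over the alternatives its adjusted p ran from 0.0278 to 0.833. Scaling by total counts, which moved the median of all genes to 0.49, put it at 0.067. The Erg difference of DKO from C was -0.30 ± 0.18 (SE) (limma, adjusted p = 0.66).

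The other adhesion genes gave no call. Pecam1, encoding the adhesion molecule PECAM-1 (CD31) at contacts between endothelial cells, was 189 and 203 in KO, 199.7, 168 and 102 in DKO, and 182, 130.0 and 121 in C. Both KO values were above all C values, as were 27.5% of tested genes, and the difference of 0.46 ± 0.27 (SE) on the log2 scale did not pass (limma, adjusted p = 0.28). It passed with total-count scaling (0.995, limma, adjusted p = 0.0275), against the moved median of 0.49, and with equal sums over nuclear genes (0.83, limma, adjusted p = 0.0345), against a median of 0.34. The Pecam1 difference of DKO from KO was -0.37 ± 0.27 (SE) (limma, adjusted p = 0.38), and it passed with total-count scaling (-1.03, limma, adjusted p = 0.0188), where the median of all genes was -0.58. Cdh5 encodes VE-cadherin, the cadherin of endothelial adherens junctions, and had 181 and 165 in KO, 246, 252 and 139.5 in DKO, and 192, 143 and 147 in C. Its KO values lay within the C range, and 2 of the 3 DKO values lay above it. Esam, encoding an immunoglobulin-family adhesion protein at endothelial tight junctions and on platelets, was 96.5 and 92.1 in KO, 96.3, 141 and 77.7 in DKO, and 115, 85.2 and 88.3 in C. The Esam difference of KO from C was -0.02, with a 95% interval of -0.52 to 0.49, which spans changes in both directions.

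Vwf encodes von Willebrand factor, a secreted clotting protein stored in endothelial cells and platelets and richer in veins and endocardium than in capillaries. Its signal was 85.4 and 105 in KO, 178, 159 and 78.4 in DKO, and 93.6, 73.3 and 52.1 in C. DKO 1 and DKO 2 were above every other library, while DKO 3 lay inside the C range. The difference of DKO from C was 0.87 ± 0.29 (SE) on the log2 scale, the largest among the markers in that comparison (limma, adjusted p = 0.50; unadjusted p = 0.0108). It passed without DKO replicate 3 (1.24, limma, adjusted p = 0.0355), while the alternatives together ran from an adjusted p of 0.0355 to 0.985. In DKO against C 0 of the 9 markers passed in limma, where 0.0738% of tested genes were called higher and 0.0812% lower, 0.155% in all. Of the 9, 1 had an unadjusted p under 0.05. No marker had groups that did not overlap, where 6.5% of tested genes had all DKO libraries above all C libraries and 7.25% had them below, 13.8% in all. The count was 0 with edgeR and with DESeq2 as well. All 9 log2 fold changes lay between -0.30 for Erg and 0.87 for Vwf, 8 of them above 0, with a median of 0.21 against 0.01 over all tested genes. Without DKO replicate 2, 5 of the 9 lay above 0 and the median was 0.0065.

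Emcn and Egfl7 mark the luminal surface and the secreted matrix. Emcn encodes endomucin, a sialomucin of capillaries, veins and endocardium, with 54.0 and 36.5 in KO, 56.5, 74.4 and 35.2 in DKO, and 57.7, 37.9 and 28.9 in C. All 3 groups overlapped, and the KO libraries differed from each other by more than their mean differed from that of C. Egfl7, encoding a secreted EGF-like protein of endothelial cells, had 203 and 164 in KO, 200.2, 437 and 260.0 in DKO, and 232, 189 and 231 in C. DKO 2 was the highest, and the difference of DKO from KO of 0.63 ± 0.28 (SE) on the log2 scale did not pass (limma, adjusted p = 0.156), except without DKO replicate 1 (0.88, limma, adjusted p = 0.0432; 0.0432 to 0.95 over the alternatives). Without DKO replicate 2 the Egfl7 difference was 0.32 (limma, adjusted p = 0.249).

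Egfl7 is also the host gene of the endothelial microRNA miR-126, which is shown because it shares that transcript; it was not measured by poly(A) sequencing. The mature form lies at chr2:26591402-26591423 on the plus strand (RefSeq, GRCm38.p6), inside Egfl7, which runs from 26580014 to 26593120 on the same strand. Its seed, bases 2 to 8, is in capitals.
mmu-miR-126a-3p: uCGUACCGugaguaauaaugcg

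Robo4 encodes a roundabout receptor of endothelial cells that stabilises vessels. Its signal was 58.5 and 66.9 in KO, 53.9, 126 and 77.5 in DKO, and 69.8, 61.6 and 78.2 in C. The groups overlapped, and DKO 2 again stood above the other 7 libraries. Robo4 and Esam lie on the same stretch of chromosome 9 (37401897 to 37415115 and 37528078 to 37538319, both on the plus strand), with other annotated genes between them. Their log2 values over the 8 libraries had a Pearson r of 0.60.

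**Figure D3:**
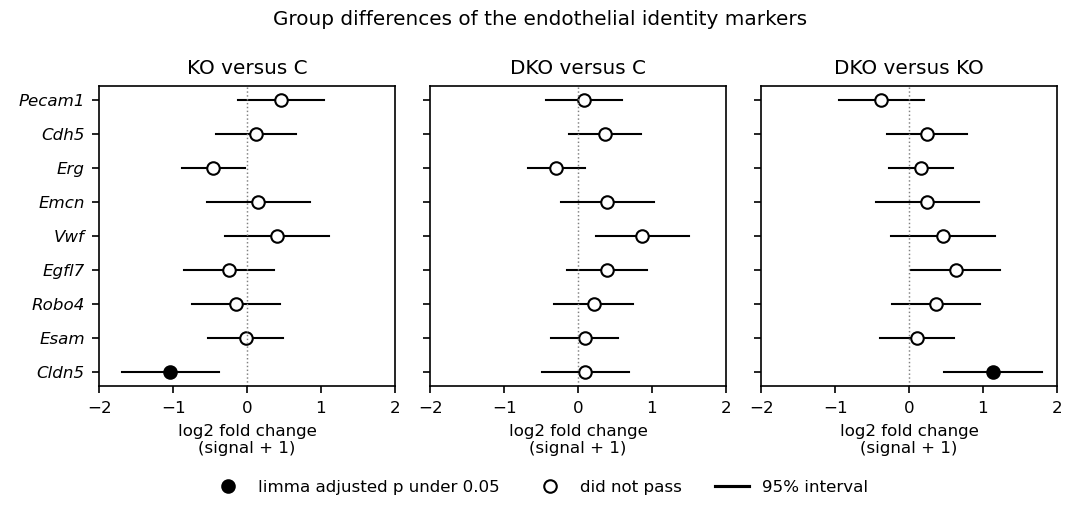
Log2 fold change of signal + 1 (x axis) of each marker (y axis) in the 3 comparisons, with unadjusted 95% intervals. Filled marks passed limma's adjusted p of 0.05; only Cldn5 did, at -1.04 in KO versus C and 1.14 in DKO versus KO, and 0 passed in DKO versus C.

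Per kilobase of the longest annotated transcript, Egfl7 had the highest level of the 9 in every group. That level was 98.4 ± 15.0 in KO, 160 ± 66.2 in DKO and 117 ± 13.2 in C (SD). In KO the order then ran Pecam1 (56.8 ± 2.89), Esam (50.6 ± 1.67), Cdh5 (43.4 ± 2.85) and Cldn5 (27.9 ± 5.98). In C it ran Cldn5 (59.2 ± 18.3), Esam (51.6 ± 8.93), Pecam1 (42.0 ± 9.55) and Cdh5 (40.2 ± 6.74), neighbours that did not differ beyond their spread. In DKO it ran Cldn5 (64.4 ± 21.5), Esam (56.3 ± 17.4), Cdh5 (53.2 ± 15.8) and Pecam1 (45.5 ± 14.5), again within each other's spread. Robo4, Emcn, Vwf and Erg were the lower 4 in every group, between 7.94 for Erg in KO and 17.3 for Robo4 in DKO, and most of these neighbours lay within each other's spread. The authors' own gene lengths were not used here, so levels per length are approximate.

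Single libraries stood high or low for many markers at once. DKO 2 held the highest value of 6 of the 9 markers (Cdh5, Emcn, Egfl7, Robo4, Esam and Cldn5), and was the highest library for 25.2% of all tested genes. DKO 3 held the lowest value of 4 of the 9, against 13.6% of all tested genes. Relative to the mean of C, the median marker was at 0.02 in KO 1, -0.06 in KO 3, 0.31 in DKO 1, 0.66 in DKO 2 and -0.19 in DKO 3 on the log2 scale. The C libraries themselves ran from -0.15 to 0.27. The coefficient of variation of the markers' signal was 3.31% (Esam) to 27.3% (Emcn) in KO, 24.9% (Erg) to 42.6% (Robo4) in DKO and 10.3% (Erg) to 35.4% (Emcn) in C. Without DKO replicate 2, the median log2 fold change of the 9 markers in DKO against C was 0.0065, against 0.21 with it. The median over all tested genes was 0.0024 without it and 0.01 with it. In DKO against KO the markers' median was 0.047 without DKO replicate 2 and 0.25 with it, and 6 and 8 of the 9 lay above 0.

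**Figure D4:**
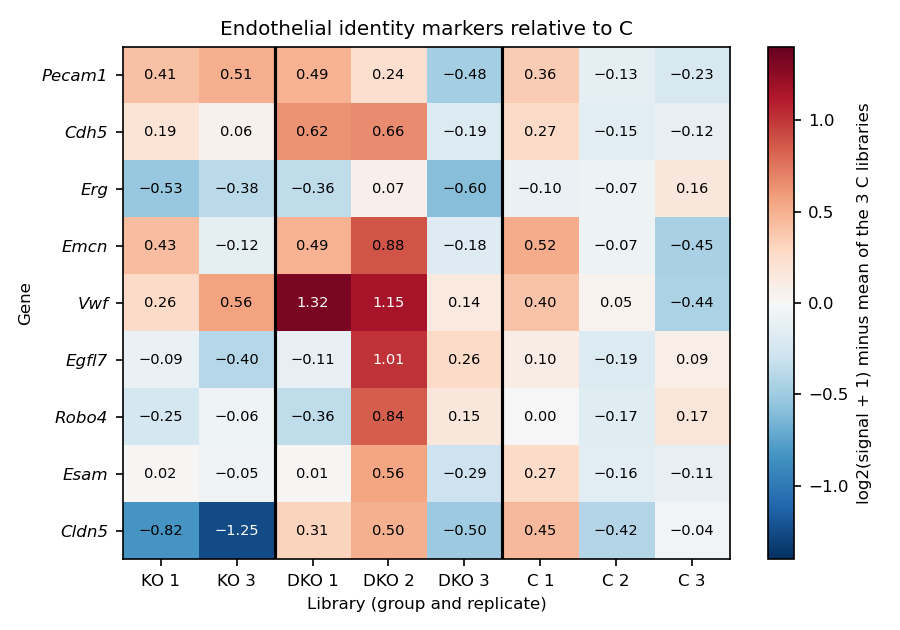
Log2(signal + 1) of each marker (rows) in each library (columns, grouped as KO, DKO and C) minus the mean of the 3 C libraries. Cldn5 is at -0.82 and -1.25 in KO, Vwf at 1.32 and 1.15 in DKO 1 and DKO 2, and DKO 2 is above the C mean for all 9 markers.

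The markers did not move as a single block. Over the 8 libraries, which share one scaling, 32 of 36 pairs had a positive Pearson r, with a median of 0.52. Without DKO replicate 2, 20 of 36 were positive, with a median of 0.19. The highest were Egfl7 with Robo4 (0.90), Cdh5 with Vwf (0.90) and Cdh5 with Emcn (0.89), and the lowest was Pecam1 with Robo4 (-0.25). Set against the mean of the other 8, Cdh5 had an r of 0.88 and Esam of 0.91, while Robo4 had 0.45 with DKO 2 and -0.54 without it. The tested genes most like the mean of the 9 markers were Ehd2 (r = 0.97), Plac8, Sp110, Mapk3 and Sncg (r = 0.96), members left out. For single markers the most similar genes were App for Pecam1, Gucy1a1 for Cdh5, Marf1 for Erg, Gpx7 for Emcn and Mmp17 for Vwf. They were Arrdc1 for Egfl7, Tmc8 for Robo4, Ifi44 for Esam and Gm1673 for Cldn5, with r from 0.97 for Marf1 to 0.99 for App. These are the highest of 13544 genes over 8 libraries, and are a description.

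Other broad endothelial genes had few calls as well. Among 30 other pan-endothelial genes 1 was higher and 1 lower in KO than in C, where 6.9% of all tested genes were higher and 7.01% lower, and their median log2 fold change was -0.04. Cd34, encoding a sialomucin of endothelial and progenitor cells, was 211 and 163 in KO against 126, 94.5 and 88.6 in C (limma, adjusted p = 0.0315). Adgrf5, encoding an adhesion G-protein-coupled receptor, was 131 and 160.5 in KO against 244, 236 and 243 in C (limma, adjusted p = 0.0351). The number called depended on the scaling: it was 10 higher and 0 lower with total-count scaling, whose median over all genes is 0.49, and 8 higher and 0 lower with equal sums over nuclear genes, whose median is 0.34. Without DKO replicate 2 it was 1 higher and 4 lower, without DKO replicate 3 it was 2 higher and 2 lower, and without DKO replicate 1 it was 1 higher and 2 lower. It was 1 higher and 0 lower without C replicate 1, and 0 in both directions with C replicate 2, C replicate 3, KO replicate 1 or KO replicate 3 left out. With only the KO and C libraries in the fit it was 3 higher and 5 lower. In DKO against C 0 of the 30 passed in limma and 2 had an unadjusted p under 0.05, with a median of 0.17. In DKO against KO 1 was higher, Ushbp1, at 145, 405 and 236 in DKO against 98.6 and 83.6 in KO (limma, adjusted p = 0.0208). Its highest value was that of DKO 2. Of all tested genes 6.08% were higher and 5.73% lower in that comparison.

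Of 12 capillary genes 6 fell in KO against C and 0 rose, where 7.01% of all tested genes were lower and 6.9% higher. The list was chosen with earlier results of these data known, so the count is a description only. Their median log2 fold change was -0.83, against 0.01 over all tested genes. Timp4, encoding a metalloproteinase inhibitor abundant in heart, was 3.48 and 23.9 in KO against 129, 111 and 88.4 in C (limma, adjusted p = 0.00181). Aqp7, encoding an aquaglyceroporin, was 15.1 and 12.2 in KO against 52.7, 45.4 and 47.2 in C (limma, adjusted p = 0.00159). Slc28a2, encoding a nucleoside transporter, was 25.4 and 18.7 in KO against 73.9, 51.6 and 81.4 in C (limma, adjusted p = 0.0100). All 3 had both KO libraries below every C library, as did 26.7% of all tested genes. They were named for the size of their called change, so this adds no support. The other lower genes were Car4, Gpihbp1 and Fabp4, which encode a carbonic anhydrase, the capillary anchor of lipoprotein lipase and a fatty acid binding protein. Fabp4 and Aqp7 are also genes of fat cells, and Timp4 is not restricted to endothelium. With KO replicate 3 left out the number lower was 2, with KO replicate 1 left out 3, and with total-count scaling 3. It was 8 without DKO replicate 2 and 9 with only the KO and C libraries in the fit, and 0 were higher in any of the 24 alternatives. In DKO against C 0 of the 12 passed in limma and 1 had an unadjusted p under 0.05, and in DKO against KO 4 were higher (Timp4, Aqp7, Slc28a2 and Car4), where 6.08% of all tested genes were.

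The lists of vessel subtypes, regulators and junctions had 0 to 2 calls each in KO against C, where 6.9% of all tested genes were higher and 7.01% lower. A single call is near the share over all genes. The 2 calls among 10 endocardial genes and the 2 among 11 junction genes lie above it, and nothing is read from counts this small. Among 14 arterial genes 1 rose in KO against C, Fbln5, encoding the elastic fibre protein fibulin-5 (58.2 ± 1.68 in KO, 22.0 ± 5.97 in C). The arterial median was 0.54, with 13 of 14 genes above 0 and 6 at an unadjusted p under 0.05. Among 10 tested venous genes 0 passed in limma and 4 had an unadjusted p under 0.05, and Selp, encoding P-selectin, had the smallest p (limma, adjusted p = 0.0651). The venous median was 0.50, with 10 of 10 above 0. Of 8 tested lymphatic genes 1 rose, Fgl2, which encodes a fibrinogen-like protein of immune cells as well (75.5 ± 18.4 in KO, 17.98 ± 3.95 in C). The lymphatic median was -0.04, with 4 of 8 above 0 and 6 at an unadjusted p under 0.05. The median over all tested genes was 0.01. The 13.9% of tested genes called in KO against C all lie under that unadjusted p, and the full share is not given here. Nothing is read from the counts at that p. Of 10 tested endocardial genes 2 rose, Plvap, encoding the protein of endothelial diaphragms (46.96 ± 12.6 in KO, 13.3 ± 6.14 in C), and Tmem100 (11.9 ± 3.65 in KO, 4.75 ± 0.941 in C). Of 19 tested endothelial transcription factors 1 rose, Klf2, encoding a flow-responsive factor (102 ± 10.8 in KO, 56.3 ± 9.23 in C). Of 11 tested junction genes 2 rose, Cdh2, encoding N-cadherin of muscle and mural cells (132 ± 8.31 in KO, 69.3 ± 7.52 in C), and Cdh13, encoding T-cadherin (129 ± 15.2 in KO, 79.4 ± 2.54 in C). Set against C, DKO had 0 calls in these 6 lists in limma. The venous list holds Vwf and the endocardial list Vwf and Emcn, which are also among the 9 markers. At an unadjusted p under 0.05 there were, beside Vwf, 1 transcription factor (Lyl1) and 1 venous gene (Flrt2, named after its values were seen), and 0 genes of the arterial, lymphatic and junction lists. In DKO against KO, Tcf15, encoding a transcription factor of heart capillary endothelium, was higher at 52.8, 112 and 50.6 in DKO against 34.9 and 33.4 in KO (limma, adjusted p = 0.0485). The highest Tcf15 value was that of DKO 2. Cdh2 and Cdh13, Fbln5 and Fgl2 were lower in DKO than in KO (limma, adjusted p = 0.0306, 0.0332, 0.0402 and 0.00379). Of all tested genes 6.08% were higher and 5.73% lower in DKO than in KO.

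**Figure D5:**
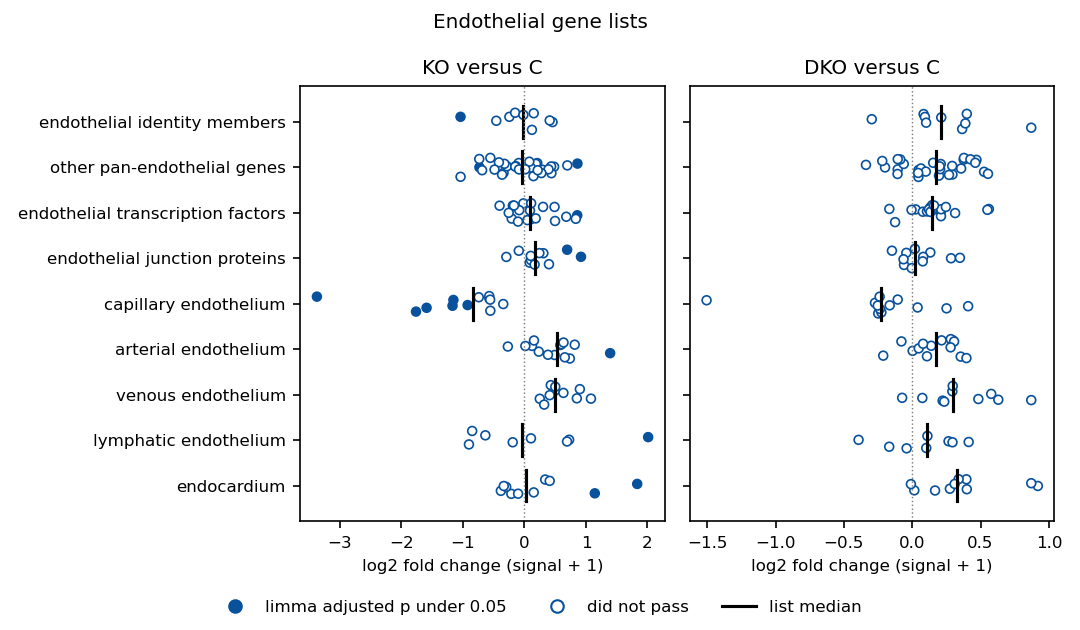
Log2 fold change of signal + 1 (x axis) of each gene in 9 endothelial lists (rows) in KO versus C and DKO versus C; filled marks passed limma's adjusted p of 0.05 and bars are list medians. The capillary list has its median at -0.83 in KO versus C, with 6 of 12 genes filled, while the markers and the other pan-endothelial genes have medians of -0.02 and -0.04. The lists were chosen with earlier results of these data known.

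Markers of other cells that could carry these transcripts were read beside the results. In KO against C 6.9% of all tested genes were called higher and 7.01% lower. A single call in a list of 11 or 12 genes is near those shares. Of 12 heart muscle genes 2 fell in KO and 0 rose, and their summed signal was 50125 to 57275 in KO, 50054 to 83063 in DKO and 82851 to 86380 in C. The part of muscle cells in the Cldn5 difference was not tested. Platelets and megakaryocytes also hold Vwf, Pecam1 and Esam. Of 7 tested platelet genes 3 fell in KO (Ppbp, Itga2b and Gp9) and 1, Itgb3, rose. The sum of the 7 was 26.9 to 30.2 in KO, 24.8 to 38.1 in DKO and 27.6 to 38.7 in C. The list held 12 genes, of which 7 were in the deposited data. Reads in the KO libraries were 14 and 25 for Ppbp, 41 and 50 for Itga2b, and 255 and 415 for Itgb3. The pericyte and smooth muscle list had 1 of 12 genes higher in KO (sums 893 to 986 in KO, 735 to 1081 in DKO, 698 to 837 in C). The leukocyte list had 1 of 11 higher (253 to 261 in KO, 231 to 264 in DKO, 189 to 216 in C), and the fibroblast list 4 of 10 higher (1752 to 2284 in KO, 1338 to 3442 in DKO, 1133 to 1925 in C). The epicardial list had 3 of 6 tested genes higher, with sums of 29.5 to 31.7 in KO, 10.4 to 17.6 in DKO and 8.84 to 14.3 in C. The erythroid list had 0 of 5 called in limma and 0 with an unadjusted p under 0.05 (2569 to 2765 in KO, 2203 to 6796 in DKO, 2706 to 5599 in C). The part of each in the marker values was not tested.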

How the data were processed

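Messenger RNA of ventricular tissue from 8 mouse samples was selected by poly(A), primed with random hexamers and sequenced, per the labels' protocols. Cutadapt, RSEM 1.3.1, limma and GRCm38 are named, without roles, in the submitters' processing notes. The sources used here give no annotation or strand setting. The deposited signal is, as read from its values, reads plus 0.5 over a scaled library size: 100% of values gave whole reads within 0.001 reads. Groups come from the sample titles. No label says whether samples are separate animals, so the p-values describe the spread among these samples, possibly a technical one. Replicates differed by more than counting noise (chi-square per gene 13.7 to 256).

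Genes reaching a signal of 1 in 2 or more libraries (13544) entered limma 3.58.1 (R 4.3.3) on log2(signal + 1), a scale that understates changes of low genes. The fit had 3 group means over 8 libraries and an intensity trend. Adjustment was by Benjamini-Hochberg across all genes of each comparison, with 0.05 as the threshold. Counts at an unadjusted p under 0.05 come without the share over all genes, and nothing is read from them. The recovered reads were run through edgeR 4.0.16, DESeq2 1.42.0 and voom as alternatives. Positions and lengths are from GENCODE M21 (GRCm38), which held 13666 of the 13677 identifiers. The limma fit was tried on simulated reads with known changes in KO, and the same spread beyond counting noise for every gene and library. That setting differs from these replicates, among which DKO 2 stood apart, and nothing about the calls here is read from it.

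The markers, the other 15 lists and the tests were chosen with earlier results of these data known. Named genes are the markers, up to 3 called genes per list with the largest change (or the smallest p where none passed), and the most similar genes. Car4, Gpihbp1, Fabp4 and Gp9 complete counts and were chosen after their values were seen; for lists of other cells most called genes are given as counts.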

Additional observations from a re-analysis of the deposited data

How the results depend on the processing

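Of 648 log2 fold changes (9 markers, 3 comparisons, 24 alternatives), 576 kept their direction and their side of the threshold, 19 lost and 8 gained a call, and 45 changed sign, all of them values that had not passed. The 19 lost calls are those of Cldn5. For changes below, the cause was not tested unless the setting itself tests fewer samples.

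Scaling moved most. Total-count scaling put the median of all genes at 0.49 in KO against C, -0.58 in DKO against KO and -0.09 in DKO against C. It called 4803 genes in KO against C (4607 higher, 196 lower) and 6204 in DKO against KO (208 higher, 5996 lower). The main test called 1883 (934 higher, 949 lower) and 1599 (823 higher, 776 lower). Total-count scaling called 2 markers in KO against C (Pecam1 and Vwf). Signs turned in KO against C for Erg (0.067), Egfl7 (0.29), Robo4 (0.38) and Esam (0.52). They turned in DKO against C for Pecam1 (-0.036), Esam (-0.026) and Cldn5 (-0.017), and in DKO against KO for Cdh5 (-0.41), Erg (-0.48), Emcn (-0.40), Vwf (-0.20), Egfl7 (-0.025), Robo4 (-0.29) and Esam (-0.55). Equal sums over nuclear genes put the medians at 0.34 in KO against C and -0.32 in DKO against KO. That scaling called 4086 genes in KO against C (3717 higher, 369 lower) and 3791 in DKO against KO (393 higher, 3398 lower). It called 0 markers in DKO against KO. Signs turned in KO against C for Egfl7 (0.13), Robo4 (0.22) and Esam (0.36), and in DKO against KO for Cdh5 (-0.13), Erg (-0.20), Emcn (-0.12), Robo4 (-0.0039) and Esam (-0.26). Scaling to the other pan-endothelial genes, chosen after seeing the data, called 446 genes in KO against C and 478 in DKO against KO, with 0 markers in both. Signs turned for Esam (0.036) in KO against C, for Pecam1 (-0.067), Esam (-0.057) and Cldn5 (-0.048) in DKO against C, and for Erg (-0.042) and Esam (-0.093) in DKO against KO. Cldn5 was -0.99 (limma, adjusted p = 0.101) in KO against C there.

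Quantile normalisation called 0 markers in KO against C (Esam 0.050), as did a variance without intensity trend (0) and removal of the length and GC trends, which called 0 in KO against C and 0 in DKO against KO (Esam 0.067 in KO against C). With only the 2 groups compared, 3606 genes and 2 markers were called in KO against C and 730 genes in DKO against KO. DESeq2 called 69 genes and voom 7 in DKO against C, where limma called 21.

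Leaving out 1 library gave 449 to 2966 called genes in KO against C, 334 to 1991 in DKO against KO and 4 to 90 in DKO against C, and 0 to 2, 0 to 1 and 0 to 1 called markers. An arm of 1 library was then assumed to vary like the others. Marker log2 fold changes that turned ran, in KO against C, from -0.10 to 0.12 for Esam and -0.12 to 0.43 for Emcn. The range in DKO against C was from -0.11 to 0.40 for Cldn5, -0.12 to 0.36 for Pecam1, -0.10 to 0.50 for Robo4 and -0.14 to 0.29 for Esam, and in DKO against KO from -0.023 to 0.31 for Erg, -0.12 to 0.30 for Esam and -0.029 to 0.53 for Emcn.

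Whether replicate numbers pair the samples was not settled. Deviations of same-numbered samples from their group means correlated from -0.27 (C 2 and DKO 2) to 0.22 (C 1 and KO 1). With 2 KO libraries their deviations mirror each other, so this check cannot exclude a pairing. With the replicate block, 1794, 21 and 1269 genes were called in KO against C, DKO against C and DKO against KO, Cldn5 was -1.04 (limma, adjusted p = 0.0347) and 1.14 (limma, adjusted p = 0.0312), and Esam was 0.059 in KO against C. Not every sample correlated best with its own number. Each marker had at least 398 reads in every library, and KO had 2 libraries.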
